A study of Mus musculus and Homo sapiens with 22 samples.

Results

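The replication-dependent histone genes encode the histones that package newly made DNA. Members were taken as the mouse genes whose GENCODE symbol starts with Hist1h, Hist2h, Hist3h or Hist4h, with 3 pseudogenes left out, which gave 67 of the 56196 genes in the count files. RNA-seq of poly(A)+ RNA was available for mouse embryonic stem cells (mESCs) of wild-type (WT) and Mettl3 knockout (KO) genotype, with 3 libraries each. Predicted N6-methyladenosine (m6A) sites were available as a list for WT mESCs and as 4 lists for poly(A)+ RNA of mouse heart at decreasing input. m6A was mapped by miCLIP2, which crosslinks an m6A antibody to RNA and reads the modified base from the ends of the cDNAs, and sites were predicted by the m6Aboost classifier. Mettl3 is the catalytic subunit of the main m6A methyltransferase of mRNA. Both mESC lines were taken over from an earlier publication, and the labels name no further allele, sex or clone and no other treatment. The heart RNA was purchased, and its donors' strain and age are not given in the sources used here. Nothing in the labels says that the 3 libraries of a genotype came from separate cultures, so p-values measure the spread between these libraries.

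Replication-dependent histone genes are transcribed in S phase and mostly lie in clusters of near-identical copies without introns. Their mRNAs are the known exception among animal mRNAs in that they end without a poly(A) tail: a short hairpin just past the stop codon, the histone stem-loop, is bound by SLBP, and the transcript is cut a few bases downstream with the help of the U7 snRNP. Selection on oligo(dT), as used for all libraries here, retains such transcripts poorly, and which molecules the counts come from was not tested. In bulk RNA, fewer cells in S phase and less histone RNA per cell likewise cannot be told apart.

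By cluster, 54 members lay in Hist1 (chr13:21715763-23934851, GRCm38), 10 in Hist2 (chr3:96219865-96270132), 2 in Hist3 (chr11:58948920-58956830) and 1 in Hist4 (chr6:136801553-136804415). By type, 6 members encode the linker histone H1, 18 encode H2A, 18 encode H2B, 12 encode H3 and 13 encode H4. In 62 members the exons formed a single block, with a median exonic length of 539 bases over all members. The histone stem-loop consensus of 16 letters was found within 250 bases after the stop codon in 65 of the 67 members, starting after 21 to 58 bases (median 30). The 8 forms of the hairpin are shown because they separate H4 from the other types, with the 6 letters of each stem arm in capitals and the loop in lower case, read from the GRCm38 genome, each with 1 member that holds it:
Hist1h1c (chr13:23739512-23739527, plus strand): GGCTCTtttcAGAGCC
Hist1h3c (chr13:23745047-23745062, minus strand): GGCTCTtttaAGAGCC
Hist2h2ac (chr3:96220418-96220433, minus strand): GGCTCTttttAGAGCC
Hist1h3g (chr13:23535889-23535904, plus strand): GGCTCTtcttAGAGCC
Hist1h4c (chr13:23698089-23698104, minus strand): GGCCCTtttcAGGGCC
Hist1h4i (chr13:22040966-22040981, minus strand): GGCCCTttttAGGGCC
Hist1h4a (chr13:23760800-23760815, minus strand): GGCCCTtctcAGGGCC
Hist1h4b (chr13:23757366-23757381, plus strand): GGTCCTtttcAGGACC

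The first form was shared by 41 members of H1, H2A, H2B and H3, and the second by 9 members of the same types. All 13 H4 members carried the stem GGCCCT (11 members) or GGTCCT (2 members), whereas all 52 matched members of the other types carried GGCTCT. Hist1h2an, an H2A gene, matched only when 1 mismatch was allowed. Hist2h2be, an H2B gene whose annotated 3′ UTR is long, had no match. In 27 members the annotation continued for at least 100 bases past the stem-loop, and in 16 it stopped before the end of the stem-loop.

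Histone genes were sparsely represented in the mESC libraries. They took between 0.0186% and 0.0464% of the gene counts of a library, of which there were 22746733 to 27254245. The gene with the most counts was Hist1h1c, with 540, 321 and 487 counts across WT replicates 1 to 3 and 1013, 679 and 1060 in KO. Per kilobase of exon, the highest level over the 6 libraries was that of Hist1h3e, at 34.1 ± 16.5 CPM (counts scaled to library size) per kilobase in WT and 29.7 ± 12.2 in KO (SD, n = 3). Next in order came Hist1h2bg, Hist1h2af, Hist1h4k, Hist1h2bb, Hist1h4d, Hist1h1a, Hist1h2bn, Hist1h3b and Hist1h1c, the last at 13 ± 4.52 in WT and 21.9 ± 6.24 in KO on the same scale. All 5 histone types are thus among the 10 highest levels. The SDs of Hist1h3e and Hist1h1c overlap in KO and, by a small margin, do not in WT.

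Counts were also limited by sequence identity between copies, since reads with several equally good places were not counted. Of all 84-base windows in its exons, the length of a read, the median member had 64.7% that occur once in the genome, and 26 members had under 50%. 8 members had no count in any library: Hist1h2ao, Hist1h2ap, Hist1h2bq, Hist1h2br, Hist1h4m, Hist2h2aa1, Hist2h2aa2 and Hist2h3c1. In 7 of them at most 11.3% of the windows were unique, and in Hist2h3c1 65.7% were, but its exons lie within those of Gm20634, and reads shared by overlapping genes were set aside. Of the other 59 members, 19 also had under 50% unique windows. Among the genes named here these are Hist1h3e (45.8%), Hist1h3b (42.1%), Hist2h3c2 (37.8%), Hist1h2bn (34.6%), Hist1h4k (33.2%), Hist1h2af (32.9%), Hist2h3b (22.0%), Hist1h2an (15.8%) and Hist1h4n (10.4%). The counts of these genes cover the stretches that differ between copies, and their levels are lower limits.

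Replicate 2 stood apart in both groups. The summed counts of all members were 481, 175 and 514 CPM across WT replicates 1 to 3 and 434, 200 and 357 CPM in KO, so that replicate 2 held 35.2% of the mean of the other WT libraries and 50.6% of the mean of the other KO libraries. The same was seen in each type: H4 was at 104, 32.3 and 110 CPM across WT and at 94.6, 40.1 and 75.8 CPM in KO, and H2A at 43.1, 18.5 and 44.6 CPM across WT and at 36.6, 19 and 27.2 CPM in KO. Gene by gene, replicate 2 was the lowest library of both groups for 51 of the 55 members that passed the filter on low counts (92.7%), compared with 18.7% of all genes tested. On the log2 CPM scale, replicate 2 differed from the mean of replicates 1 and 3 by a median of −1.57 in WT and −0.99 in KO over these members, against 0.01 and 0.00 over all genes.

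The 4 exceptions were Hist2h2be, Hist1h2af, Hist1h2ak and Hist1h1t. Hist2h2be, which has no stem-loop match, was at 1.27, 1.37 and 1.23 CPM across WT and at 0.876, 0.743 and 0.850 CPM in KO. Its replicate 2 was thus the highest WT library and the lowest KO library, with a narrow spread in both groups. The replication-independent histone genes, whose mRNAs in general carry a poly(A) tail, behaved likewise: of 11 tested, 3 were lowest in replicate 2 of both groups. Rn7sk, which encodes the 7SK RNA, a non-coding RNA without a poly(A) tail, moved with the histone genes, at 938, 347 and 821 CPM across WT and at 1390, 583 and 1199 CPM in KO. Of the 12 tested genes on a list taken to be RNAs without a poly(A) tail, 7 were lowest in replicate 2 of both groups. Others on it were not, and whether every transcript counted for them lacks a tail was not tested. In replicate 2 Neat1 was higher by 0.92 in WT and 1.23 in KO, and Malat1 by 0.31 and 0.27, on the log2 scale. Scarna9 and Scarna17 differed by −0.18 and −0.29 in WT and by −0.06 each in KO. The summed snRNA genes were also low, with replicate 2 at 48.6% of the mean of the other WT libraries and at 41.7% of the mean of the other KO libraries. Of 27 S phase genes, 18 were lowest in replicate 2 of both groups, as were 12 of 21 genes for histone transcription and 3′ processing. This compares with 18.7% of all genes. The median over S phase genes was −0.38 in WT and −0.19 in KO on the log2 scale, against −0.40 and −0.93 over the 12 genes listed as lacking a tail. The part of RNA selection or of cell cycle distribution in the low values of replicate 2 was not tested.

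**Figure D1:**
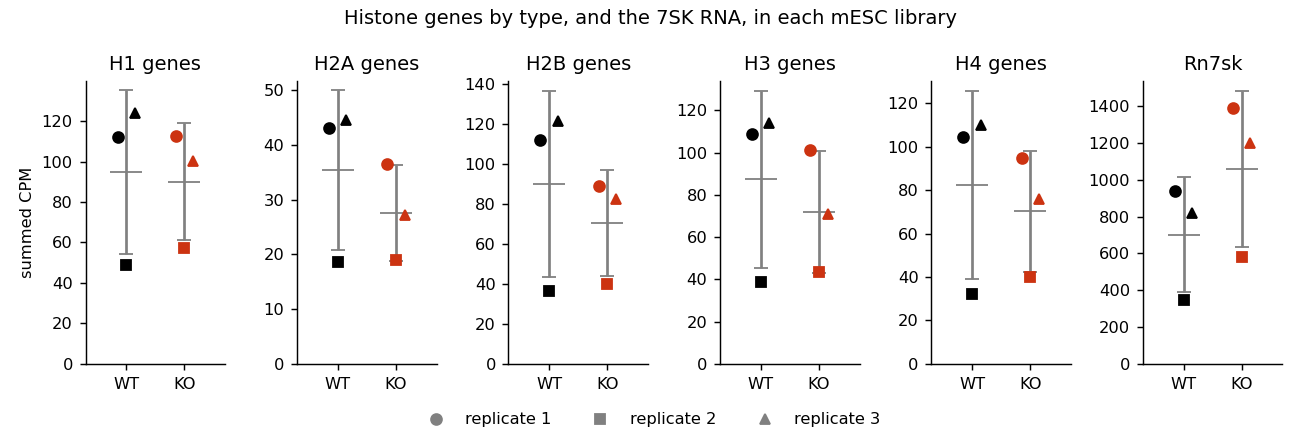
Summed CPM of the histone genes of each type, and of Rn7sk, in the 3 WT (black) and 3 KO (red) mESC libraries; symbols mark the replicate number, grey bars the mean and SD. Replicate 2 is the lowest library of both groups in all 6 panels.

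**Figure D2:**
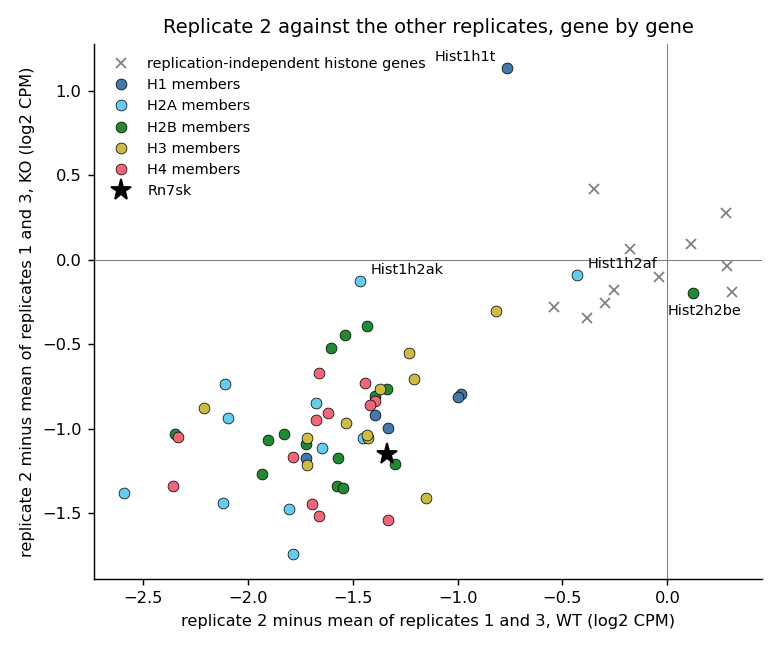
For each gene, log2 CPM in replicate 2 minus the mean of replicates 1 and 3, in WT (x axis) and in KO (y axis). Most of the 55 histone genes lie in the lower left beside Rn7sk (star), whereas the replication-independent histone genes (crosses) lie near 0 with Hist2h2be.

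The first question was whether histone transcripts as a whole differ between KO and WT. The sum over all members was 390 ± 187 CPM across WT and 330 ± 119 CPM in KO (SD, n = 3), and the 2 groups overlapped (two-sided exact permutation test, p = 0.60, with 0.10 the smallest p that 3 against 3 libraries allow). Within replicate numbers, the log2 ratio of KO to WT was −0.15, 0.19 and −0.53, so its sign differed between pairs (exact sign-flip test, p = 0.75, smallest possible 0.25). Among the types, the p-values adjusted over 5 types lay between 0.75 for H2A, H2B, H3 and H4 and 0.80 for H1. No difference in total histone transcripts was detectable at this spread.

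The Hist2 cluster differed most. Its summed counts were 21.9, 8.26 and 28.5 CPM across WT and 11.3, 6.28 and 10.7 CPM in KO, lower in KO within all 3 replicate numbers (log2 ratios −0.95, −0.40 and −1.41). Its groups still overlapped through WT replicate 2 (exact permutation test, p = 0.30, 0.80 after adjustment over 4 clusters). The Hist1 cluster was at 364 ± 174 CPM across WT and 315 ± 114 CPM in KO. The only Hist4 gene, Hist4h4, was at 5.81, 2.48 and 8.08 CPM across WT and at 6.05, 3.17 and 4.65 CPM in KO. In the Hist3 cluster, Hist3h2a had 17, 3 and 9 counts across WT and 29, 9 and 34 in KO, and Hist3h2ba had 25, 6 and 13 in WT and 10, 9 and 15 in KO. None of these 3 genes passed the test, with fitted log2 fold changes of −0.23 ± 0.39 for Hist4h4, 1.04 ± 0.64 for Hist3h2a and −0.65 ± 0.54 for Hist3h2ba (SE).

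As a share of all histone counts, which does not depend on library scaling, the types kept similar proportions. H1 took 25.1 ± 2.43% in WT and 27.6 ± 1.45% in KO, H2A 9.42 ± 1.04% and 8.52 ± 0.952%, H2B 22.6 ± 1.54% and 21.2 ± 1.69%, H3 22.4 ± 0.258% and 21.6 ± 1.71%, and H4 20.5 ± 1.78% and 21 ± 0.899% (SD, n = 3). The groups overlapped for all 5 types (exact permutation tests, adjusted p of 0.50 to 0.80).

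Gene by gene, 55 members passed the filter on low counts and 12 did not. In the edgeR quasi-likelihood fit of KO against WT, 3 of the 55 were called at a Benjamini-Hochberg adjusted p of at most 0.01, all lower in KO, compared with 29.7% of all 15731 genes tested. WT and KO libraries of the same number deviated together for numbers 2 and 3 (r = 0.46 and 0.30 over all genes), and hardly for number 1 (r = 0.12). A second fit with the replicate number as a block was therefore made, and it called 17 of the 55 (30.9%), compared with 43.5% of all genes. Of these, 13 were lower in KO, where 20% of all genes were, and 4 were higher, where 23.5% of all genes were. Without both replicate 2 libraries and without a block, 9 members were called, 8 of them lower, against 19.4% of all genes. The median log2 fold change of the 55 members was −0.29, against −0.02 over all genes, and −0.22 against −0.01 with the block. It rested on few libraries, being −0.73 without WT replicate 2 and −0.034, −0.058 and −0.060 without WT replicate 3, WT replicate 1 and KO replicate 2, and under the block it was −0.016 without the pair of replicate 3 and −0.50 without that of replicate 2.

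Library-size scaling in place of TMM factors raised the median of all genes by 0.10 (log2). Relative to the median of all genes, the members' median was −0.28 under TMM and −0.25 under library-size scaling, while with 1 library left out this difference ran from −0.73 to −0.031. With the block and library-size scaling, 16 members were called, 6 higher and 10 lower. Of the 17 calls described next, 14 were also made there. Hist1h1e, Hist1h2af and Hist1h2bn were no longer called, and Hist1h1d and Hist1h4n were called higher. The signs of the 17 were the same under both scalings. Without the block, 41 of the 55 members had a log2 fold change below 0 under TMM and 36 under library-size scaling. The uncalled Hist1h2bb and Hist1h3b were among those that changed sign.

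**Figure D3:**
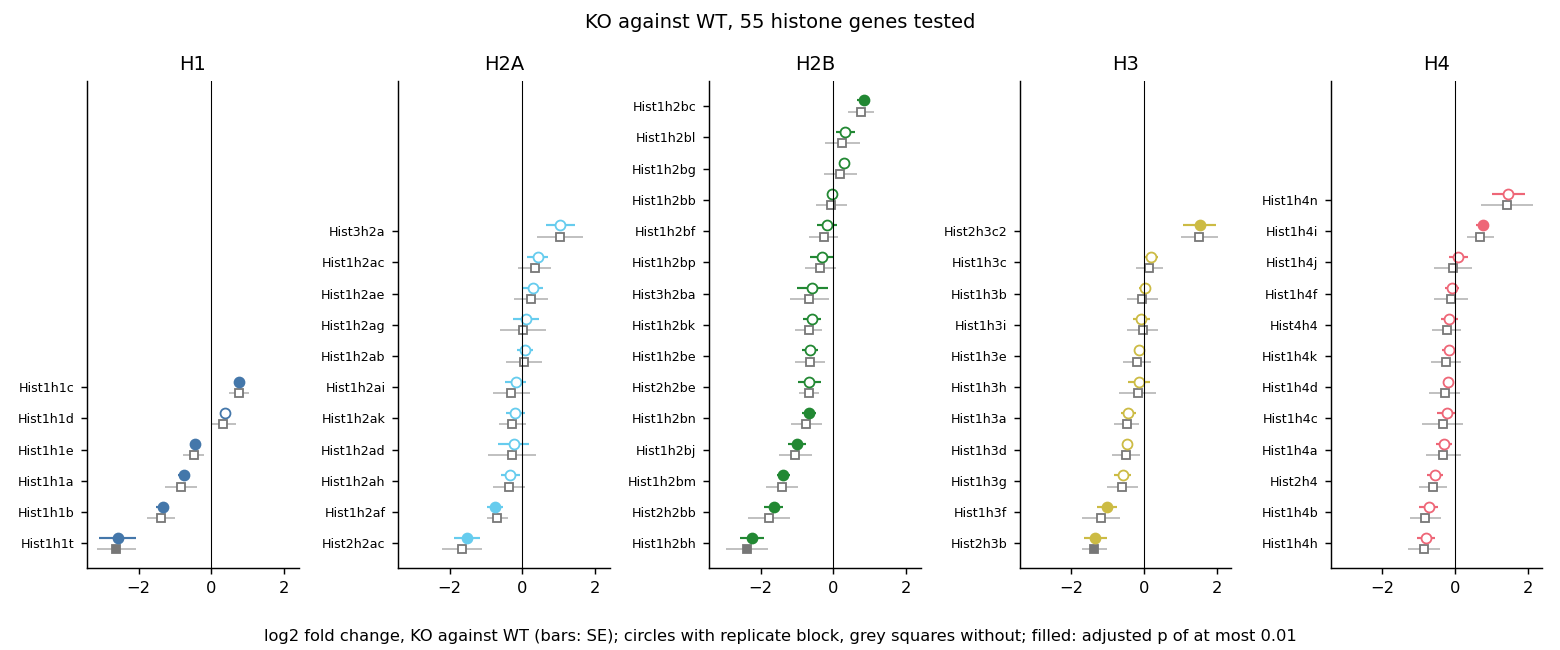
Fitted log2 fold change of KO against WT (x axis, bars SE) for the 55 histone genes tested, by type. Circles are from the fit with the replicate block and grey squares from the fit without it; filled symbols mark an adjusted p of at most 0.01, reached by 17 genes with the block and by 3 without.

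The H1 genes moved in opposite directions. Linker histones bind the nucleosome where DNA enters and leaves, and the somatic subtypes H1.1 to H1.5 are encoded by Hist1h1a to Hist1h1e. Hist1h1c (chr13:23738808-23740367), which encodes H1.2, was at 25.5, 12.2 and 23 CPM across WT and at 40.3, 22.9 and 39.2 CPM in KO. It was higher in KO in all 3 replicate pairs, and the groups overlapped through KO replicate 2. The fitted log2 fold change was 0.76 ± 0.28 without the block (edgeR adjusted p = 0.045, SE) and 0.78 ± 0.12 with it (adjusted p = 2.5e-05). It was also called without a block when both replicate 2 libraries were left out (adjusted p = 0.0061).

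Hist1h1b (chr13:21779883-21780625), which encodes H1.5, went the other way, at 15.3, 7.04 and 20.8 CPM across WT and 7.28, 3.27 and 5.98 CPM in KO. It was lower in KO in all 3 pairs, with a log2 fold change of −1.34 ± 0.18 with the block (adjusted p = 8.3e-06) and −1.38 ± 0.38 without (adjusted p = 0.014). Hist1h1a was at 23.8, 7.96 and 29.3 CPM across WT and at 15.4, 6.14 and 12.7 CPM in KO, and Hist1h1e at 22.8, 11.3 and 22.5 CPM and at 17.2, 8.98 and 14.6 CPM. Both were called lower with the block, by −0.76 ± 0.16 and −0.46 ± 0.13, and neither was in the fit of all 6 libraries without it. Hist1h1a was also called without a block when both replicate 2 libraries were left out (adjusted p = 0.0052), whereas Hist1h1e lost its call under the block with library-size scaling, and 25.7% of the exonic bases of Hist1h1e are shared with Hist1h2be and Gm11398. Hist1h1d was higher in KO in all 3 pairs but was not called (0.39 ± 0.14 with the block, adjusted p = 0.020).

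Expressed as a share of all H1 counts in the same library, these differences no longer depended on replicate 2. Hist1h1c made up 22.7, 25.1 and 18.6% of H1 counts across WT and 35.9, 39.9 and 39.1% in KO. Hist1h1d made up 21.2, 19.6 and 21.5% in WT and 28.6, 27.5 and 27.7% in KO, whereas Hist1h1b made up 13.7, 14.4 and 16.8% in WT and 6.48, 5.71 and 5.97% in KO. The 2 groups did not overlap for any of the 6 H1 genes, and each reached the smallest p that the exact permutation test allows (p = 0.10, also after adjustment over the 6 genes). Shares of a common total are not independent of each other, and this measure was chosen after the fold changes had been seen.

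**Figure D4:**
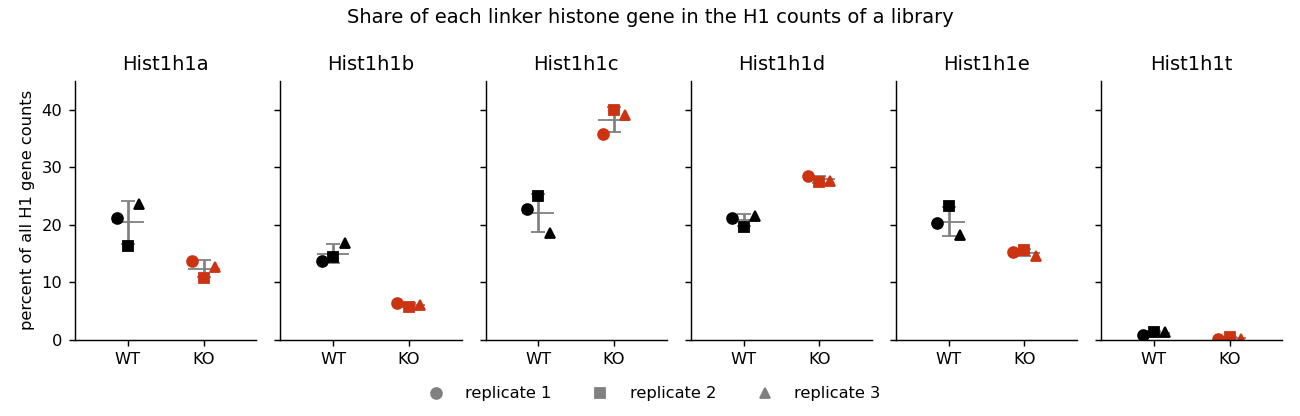
Share of each H1 gene in the H1 counts of a library (y axis, percent) for the 3 WT (black) and 3 KO (red) libraries; symbols mark the replicate number, grey bars the mean and SD. Hist1h1c and Hist1h1d are higher in all KO libraries, and Hist1h1a, Hist1h1b and Hist1h1e lower.

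Hist1h1t, the testis-specific linker histone, is a germline member. It had 19, 18 and 35 counts across WT and 3, 9 and 2 counts in KO, and the groups did not overlap. Its fitted log2 fold change of −2.62 ± 0.54 was called without the block (adjusted p = 0.0029) and with it, although the KO counts are near the limit of detection. The other germline members, Hist1h2aa and Hist1h2ba, whose proteins are also known from testis, had at most 8 and 12 counts in any library and were not tested.

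H2B, which pairs with H2A in the nucleosome core, had 5 of 15 tested genes lower and 1 higher with the block, compared with 4 lower and 1 higher of 6 in H1. Hist1h2bh (chr13:23541714-23543392) had 61, 31 and 141 counts across WT and 23, 11 and 21 in KO. The groups did not overlap, and the log2 fold change of −2.37 ± 0.59 was called without the block (adjusted p = 0.0079) as well as with it (−2.23 ± 0.33). Hist1h2bm had 307, 139 and 355 counts across WT and 159, 66 and 144 in KO, and Hist2h2bb 172, 47 and 231 counts across WT and 43, 33 and 88 in KO. Both were called with the block but not in the fit of all 6 libraries without it, at −1.37 ± 0.18 and −1.64 ± 0.26, and 59.3% of the exonic bases of Hist2h2bb are shared with Gm42743. WT replicate 2 of both lay within the range of the KO libraries, and without that library both were called in the fit without the block too.

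Hist1h2bc was the H2B gene that rose, with 147, 76 and 182 counts across WT and 287, 206 and 354 in KO. It was higher in all 3 pairs, at a log2 fold change of 0.84 ± 0.18 with the block (adjusted p = 0.00081) and 0.78 ± 0.36 without (adjusted p = 0.10). Hist1h2bj and Hist1h2bn were lower with the block, by −0.99 ± 0.24 and −0.66 ± 0.19. The abundant Hist1h2bg (28.5 ± 16.5 and 32.8 ± 14.7 CPM per kilobase in WT and KO) and Hist1h2bb (23.5 ± 11.7 and 22.7 ± 9.99) were not called in either fit. Hist2h2be was lower in KO without overlap of the groups but was not called (−0.65 ± 0.27, adjusted p = 0.074).

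Of 11 H2A genes tested, 2 were called lower with the block and 0 without it (edgeR, with 2 at an unadjusted p under 0.05), while DESeq2 called 1. Hist2h2ac had 53, 17 and 79 counts across WT and 24, 14 and 20 in KO, with a log2 fold change of −1.52 ± 0.35. WT replicate 2 again lay among the KO libraries. Hist1h2af, the most highly expressed H2A gene per kilobase, had 293, 280 and 317 counts across WT and 309, 217 and 134 in KO, so that its lower values came from KO replicates 2 and 3 (−0.75 ± 0.21).

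In H3, the core histone that carries many of the well-known chromatin marks, 2 of 11 genes were lower and 1 higher with the block. Hist2h3b had 40, 30 and 48 counts across WT and 21, 17 and 17 in KO. The groups did not overlap, and it was called in both fits (−1.37 ± 0.34 without the block, adjusted p = 0.0085). Hist2h3c2, from the same cluster, went the other way, with 5, 2 and 7 counts across WT and 18, 12 and 19 in KO (1.53 ± 0.46 with the block, adjusted p = 0.0094). Hist1h3f was lower with the block (−1.03 ± 0.28), while Hist1h3e, Hist1h3b and Hist1h3c were not called in either fit.

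Of 12 H4 genes tested, edgeR called 0 without the block (0 at an unadjusted p under 0.05), DESeq2 called 0, and the block called 1, Hist1h4i. It was at 7.32, 2.67 and 6.95 CPM across WT and at 11.2, 5.97 and 10.2 CPM in KO, higher in KO in all 3 pairs (0.76 ± 0.19, adjusted p = 0.0022 with the block, 0.70 ± 0.36, adjusted p = 0.13 without). The abundant Hist1h4d (822, 285 and 771 counts across WT, 826, 379 and 681 in KO) and Hist1h4k (245, 91 and 231 in WT, 245, 132 and 208 in KO) were called in neither fit.

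The site lists were then searched for m6A in exons that belong to a single gene on the same strand. m6A is placed mainly at the A of the DRACH motif (D stands for A, G or T, R for A or G, H for A, C or T) and is usual around stop codons and in 3′ UTRs. The mESC list held 2 sites in members, in 2 genes, among 25456 sites in all. Of the members tested, 3.64% thus had a site, compared with 41.5% of the 15704 tested genes found in the annotation. Histone genes have low counts and short exons, with a median of 7 DRACH motifs for the members tested against 78 for all tested genes. The authors also kept only uniquely mapping miCLIP2 reads, so sites in stretches identical between copies may be missed. The part of this in the low number of sites was not tested. Among the 3926 genes in the second lowest expression quartile, which includes 30 members, 20.7% of genes had a site, and there were 5.45 sites per 1000 DRACH motifs in members, resting on 2 sites, against 4.97 in all genes. In the next quartile, 0 sites were found in the 246 DRACH motifs of 7 members, compared with 18.4 sites per 1000 motifs in all genes, and none of these members had a site. Of these motifs, 130 lie in Hist1h1d, which is annotated for 4884 bases past the stem-loop and was at 3.04 CPM per kilobase. Another 40 lie in Hist1h1e, where 25.7% of the exonic bases are shared with other genes and were not searched here.

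In heart RNA the list made from 1 µg held 14 sites in 3 members, Hist1h1c with 7, Hist1h4i with 4 and Hist2h2be with 3. The lists from 300, 100 and 50 ng held 6, 3 and 0, and in all 8845, 1112 and 248 sites, compared with 46421 for 1 µg. The sites are shown in the RNA direction with the modified A in the middle, 10 bases on either side and the 5 letters centred on it in capitals, as read from GRCm38. They were chosen to give the mESC sites, the 2 sites of Hist1h1c seen down to 100 ng that lie farthest apart, the adjacent Hist1h4i sites, the coding site outside the motif, and the best-ranked site of Hist2h2be:
Hist1h1c (chr13:23739736-23739756, plus strand): ttcgtattGGACTgcaaggtg
Hist1h1c (chr13:23740020-23740040, plus strand): tggactcgGGACTgagacgat
Hist1h4i (chr13:22040903-22040923, minus strand): ttgtcctgGAACTctgtagac
Hist1h4i (chr13:22040878-22040898, minus strand): ctggccttGAACTcagaagcc
Hist1h4i (chr13:22041057-22041077, minus strand): accgccatGGACGtggtctac
Hist1h3c (chr13:23745255-23745275, minus strand): atcgcgcaGGACTtcaagacc
Hist2h2be (chr3:96223047-96223067, plus strand): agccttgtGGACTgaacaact

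In Hist1h1c the 7 sites of the 1 µg list lay 64 to 605 bases after the stop codon, all in the annotated 3′ UTR and all past the stem-loop, by 24 to 565 bases. Cleavage of histone mRNA is known to occur within a few bases of the stem-loop, upstream of these positions. The sites at 259, 536 and 543 bases after the stop codon were also in the 300 and 100 ng lists, and the site at 543 bases ranked 714 of 46421 by score, the highest rank of any histone site. Hist1h1c had no site in the mESC list, although it was the member with the most counts in mESCs.

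Hist1h4i was the gene with sites in both tissues. The site 99 bases after the stop codon, 53 bases past the stem-loop, was in the mESC list with an m6Aboost score of 0.820, above the median score of the list of 0.745, and in the 1 µg heart list. The site 124 bases after the stop codon was in the heart lists from 1 µg and 300 ng, and a further one lay at 301 bases. These 3 sites have GAACT as their 5 letters. The remaining heart site lay in the coding sequence, 55 bases before its end, at GGACG, which is not a DRACH motif. Hist1h4i was also called higher in KO with the block (edgeR adjusted p = 0.0022), but not in the main fit without it (adjusted p = 0.13).

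The second mESC site lay in Hist1h3c, in the coding sequence 178 bases before its end, at GGACT, with a score of 0.580 that ranked 22170 of 25456. Hist1h3c was not called between KO and WT (0.18 ± 0.19 with the block, adjusted p = 0.44). The 3 sites of Hist2h2be lay 1378, 1511 and 1535 bases after the stop codon, and the one at 1511 bases ranked 9034 of 46421. Where exons shared with another gene were admitted, the 1 µg heart list gained 4 sites, in exons shared by Hist1h1e with Hist1h2be and Gm11398, by Hist2h2bb with Gm42743 and by Hist3h2a with Trim17, and the mESC list gained none.

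**Figure D5:**
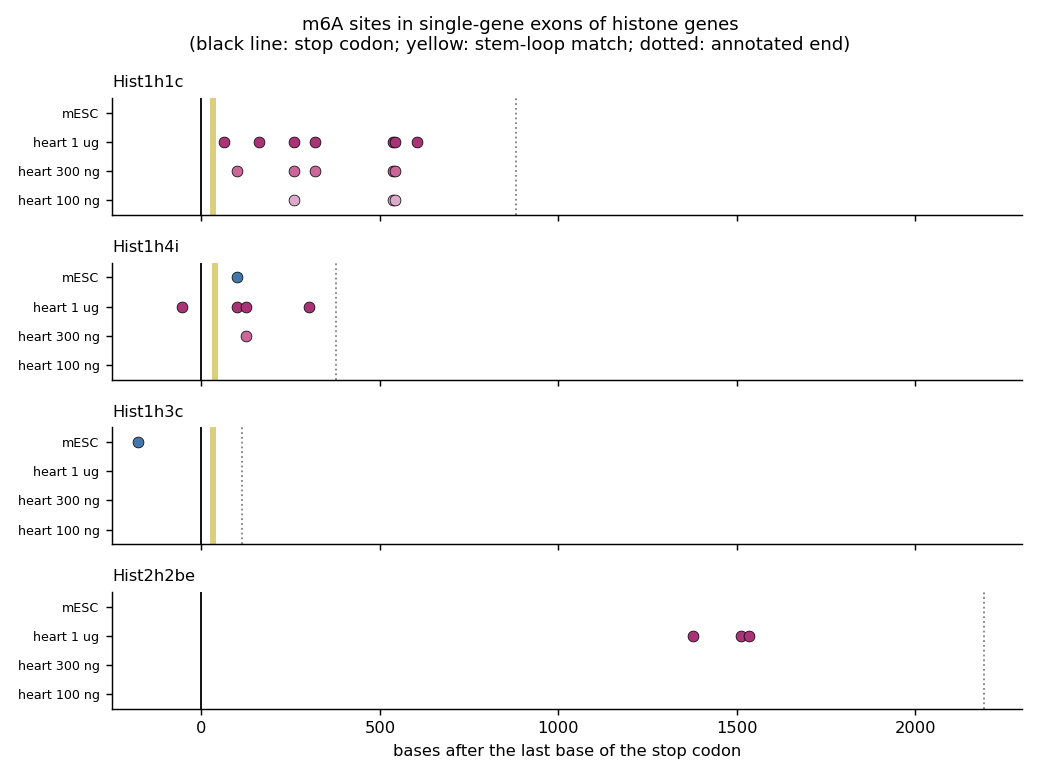
Predicted m6A sites in single-gene exons of the 4 histone genes that hold any in the mESC or 1 µg heart list, by distance from the last base of the stop codon (x axis, bases; negative values are coding) and by list (rows). The yellow band is the stem-loop match and the dotted line the annotated end. 10 of the 14 sites of the 1 µg list lie past a stem-loop.

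Genes that act in the making, processing and packaging of histones were described from lists of known members. Of 21 tested genes for histone transcription and 3′ processing, 2 were higher and 6 lower in KO, with a median log2 fold change of −0.25 (4 higher and 9 lower with the block), where 29.7% of all genes were called without and 43.5% with the block. Slbp, the stem-loop binding protein, was at 81.1, 70.8 and 103 CPM across WT and at 54.6, 50.3 and 57.2 CPM in KO, without overlap (−0.65 ± 0.14, adjusted p = 0.0039). Lsm10, a subunit of the U7 snRNP, rose from 9.58, 12.5 and 15.8 CPM to 39.6, 34.4 and 40.5 CPM (1.60 ± 0.18 on the log2 scale, adjusted p = 8.9e-05). Its partner Lsm11 did not pass the test (0.06 ± 0.14), nor did the U7-associated Zfp473 (0.20 ± 0.19), the exonuclease gene Eri1 (−0.27 ± 0.13), or Npat and Casp8ap2 (−0.18 ± 0.10 and 0.29 ± 0.13), which act in transcription at the histone loci. Sympk, a scaffold of the cleavage complex, had the lowest fold change of the list (−0.80 ± 0.11).

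Replication-independent histone genes are in general not restricted to S phase. Of 11 tested, 3 were higher and 1 lower (3 and 4 with the block). Of all genes, 29.7% were called without the block and 43.5% with it, the latter being 23.5% higher and 20% lower. H1f0, the linker histone H1.0 of slowly dividing cells, rose from 28.4, 22.1 and 36.4 CPM to 150, 124 and 152 CPM (2.29 ± 0.17), and H2afx rose by 0.94 ± 0.12. Cenpa, the centromeric H3, was lower (−0.75 ± 0.14), while H2afz, H3f3a and H3f3b did not pass the test (−0.41 ± 0.17, −0.29 ± 0.14 and −0.17 ± 0.11).

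Among 22 histone chaperone genes, 2 were higher and 3 lower (2 and 5 with the block). The called genes ran from Chaf1a (0.70 ± 0.13), a subunit of chromatin assembly factor 1, down to Hat1 (−0.67 ± 0.10), a histone acetyltransferase. Among 27 S phase genes, 2 were higher and 7 lower (2 and 15 with the block, against the same 29.7% and 43.5% of all genes), with a median of −0.40. Tk1, thymidine kinase, rose by 1.33 ± 0.21, E2f2 was lowest (−0.87 ± 0.22), and Pcna, the replication clamp, did not pass the test without the block (−0.40 ± 0.13, adjusted p = 0.024). Of 12 tested genes on the list of non-polyadenylated RNAs, edgeR called 0, with 2 at an unadjusted p under 0.05, DESeq2 called 2 and the block 4. Rn7sk was at a log2 fold change of 0.59 ± 0.37 (adjusted p = 0.21, and 0.62 with the block, adjusted p = 9.2e-05), and Rmrp had no count.

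The lines were checked against their labels. Mettl3 itself was at 26.4, 26.6 and 28.9 CPM across WT and at 18.4, 22.6 and 16.9 CPM in KO (−0.50 ± 0.14, adjusted p = 0.013), so that transcripts of the locus remained. With the block it was called lower (−0.51 ± 0.13, adjusted p = 0.0028). All 10 stem cell markers were tested, with 3 lower in KO (Tdgf1, Dppa5a and Lin28a) and Pou5f1, Nanog and Sox2 uncalled in both fits. Esrrb was called higher with the block (0.43 ± 0.10, adjusted p = 0.0019, against 0.011 without), and their summed level was between 4470 and 4858 CPM across WT and between 3220 and 3306 CPM in KO. The 10 fibroblast feeder markers summed to between 9.45 and 13.2 CPM across WT and between 10.7 and 11.9 CPM in KO, with Lum and S100a4 at 0 in most libraries. Of the 3 that were tested, Thy1 was higher in KO (1.19 ± 0.23, adjusted p = 0.0021) and Pdgfrb lower (−0.88 ± 0.20, adjusted p = 0.0049). The Y-linked Ddx3y was at 0, 0.0381 and 0 CPM across WT and at 68.2, 66.9 and 72.6 CPM in KO, so the lines differ in sex chromosomes as well as at Mettl3, and the part of either in any difference between KO and WT cannot be told apart.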

How the data were processed

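The authors mapped single-end RNA-seq reads of 84 bases to GRCm38 with STAR and assigned them to GENCODE genes with htseq-count in its reverse-stranded mode. The submitters' processing notes name STAR 2.6.1b and HTSeq 0.12.4. The deposited gene counts are whole numbers and are not normalised. Lines that name no gene were left out. They held 36.7 to 42.7% of all counts in a library, and the line for reads with several places held 13.9 to 15.2% of all counts. The score deposited by the authors with the mESC sites is the m6Aboost prediction, a fraction between 0 and 1, in one list for all WT replicates. The score of the heart lists has no stated scale and was used to rank sites only. The heart titles give the lower inputs in µg, but the study's results text and the list names give ng, which was used. Each heart list is 1 library, without replicates.

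KO and WT were compared by the quasi-likelihood test of edgeR 4.0.16 under R 4.3.3 (genes kept by filterByExpr, TMM factors, Benjamini-Hochberg adjustment over 15731 genes, called at an adjusted p of at most 0.01), and SE was taken as the fold change over the root of the F statistic. The study used DESeq2, which was an alternative here (1.42.0). Deviations of WT and KO libraries of the same replicate number from their group means correlated over all tested genes (r = 0.12, 0.46 and 0.30 for numbers 1 to 3). Libraries of unlike number gave r from −0.34 to 0.11, the highest for WT replicate 3 with KO replicate 1, close to that of number 1. The numbers were taken to pair the libraries, and values from a fit with the number as a block are given for members and named genes whose call they change. For sums and shares, exact permutation tests were used, all two-sided. Intervals of spread are SDs over 3 libraries.

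Annotation and sequences came from GENCODE M21 and the GRCm38.p6 genome, where the authors used M23. 55154 of 56196 counted genes matched. Sites were assigned by position and strand. The named genes are the 10 members with the highest level per kilobase, the 6 highest and 6 lowest fold changes among called members that averaged 20 counts or more, members with a site, the Hist3, Hist4 and germline members, a short list of histone regulators and variants, and the extremes among the called genes of each list. Applying this rule to the calls of the block was added after seeing the data, as were naming other called members, Hist1h1d, Ddx3y and the stem cell markers, the H1 shares, and 7 further alternatives. Members and lists were chosen with earlier results of these data known. The human site list was not used here. Python 3.11.15, NumPy 2.4.6, pandas 2.3.3, SciPy 1.17.1 and Matplotlib 3.10.9 were used.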

Additional observations from a re-analysis of the deposited data

How the results depend on the processing

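The number of histone genes called in KO against WT, 3 of 55, changed with the count filter, with the block and with the libraries left out. It was 5 of 59 with DESeq2 (5437 of 31057 genes in all) and 17 of 59 with genes of at least 1 count kept (6406 of 31057). It was 17 of 55 with the replicate block (6837 of 15731) and 16 of 55 with the replicate block and library-size scaling (6777 of 15731). Without both replicate 2 libraries it was 9 of 57 (3042 of 15679). At an adjusted p of at most 0.05 it was 9 of 55, for which no share of all genes is given. Leaving out 1 library, or 1 pair under the block, gave 0 to 19. The 0 of 57 came without KO replicate 3 (8 at an unadjusted p under 0.05), where 3109 of 16133 genes in all were called. Without WT replicate 2 it was 13 of 57 (4130 of 16137). Without each of the other libraries it was 1, where 2761 to 5412 genes in all were called. Under the block, leaving out pair 1, 2 or 3 gave 13 of 54, 19 of 57 and 13 of 53 calls, of which 13, 14 and 12 were among the 17. Over all genes these fits called 5447 of 16031, 5693 of 15679 and 7523 of 16035. The cause of these changes was not tested.

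Of the context lists, the 8 called processing genes were 13 with the replicate block and 4 to 10 with 1 library left out. The 5 chaperone genes were 2 without both replicate 2 libraries, 9 at an adjusted p of at most 0.05 and 1 to 7 with 1 library left out. The 4 replication-independent genes were 7 with the replicate block, 2 without both replicate 2 libraries and 2 to 6 with 1 left out. The 9 S phase genes were 14 with genes of at least 1 count kept, 5 with library-size scaling, 17 with the replicate block, 15 at an adjusted p of at most 0.05 and 2 to 14 with 1 left out. The 0 non-polyadenylated genes were 2 with DESeq2, 5 with genes of at least 1 count kept, 1 with library-size scaling, 4 with the replicate block, 2 at an adjusted p of at most 0.05 and 0 to 1 with 1 left out.

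Summed counts could not be called in any setting, since the smallest p of the exact tests is above the threshold. Their log2 ratio of KO to WT changed sign in some settings. For H1 it was −0.08, and 0.049 with library-size scaling. With 1 library left out it ran from −0.59 to 0.020 for all members, −0.39 to 0.16 for H1, −0.61 to 0.052 for H4, −0.56 to 0.053 for Hist1, −0.19 to 0.94 for Hist3 and −0.59 to 0.16 for Hist4. Averaged over the 3 replicate numbers, the log2 ratio kept its sign for every sum. Single pairs differed in sign for every sum except that of Hist2. 1 of 2 mESC sites had a score at or above the list median.

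Named genes that changed sign were not called in the main fit. With library-size scaling these were Hist1h2bb (0.077) and Hist1h3b (0.081), and with the replicate block Hist1h3b (0.029). Members not named here changed sign as well. Of the 55 members tested, 41 lay below 0 in the main fit, 36 with library-size scaling and 39 with the replicate block. With 1 library left out the fitted log2 fold change ran from −0.43 to 0.29 for Hist1h2bb, −0.22 to 0.55 for Hist1h2bg, −0.45 to 0.24 for Hist1h3b, −0.24 to 0.38 for Hist1h3c, −0.57 to 0.073 for Hist1h3e, −0.68 to 0.026 for Hist1h4d, −0.64 to 0.024 for Hist1h4k, −1.11 to 0.022 for Hist3h2ba, −0.60 to 0.17 for Hist4h4 and −0.055 to 0.16 for Lsm11. In all, 489 of the recomputed values of single genes kept their direction and their side of the threshold, 30 lost and 42 gained a call. At the common coefficient of variation of 0.16 and 0.0186 to 0.0464% of gene counts in members, differences that were not called may exist.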

Other observations

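Ratios of 2 members within a library do not depend on scaling. They were chosen after seeing the fold changes and are given as values. The ratio of Hist1h1c to Hist1h1b counts was 1.66, 1.74 and 1.11 in WT and 5.54, 7.00 and 6.54 in KO, and that of Hist1h2bc to Hist1h2bm was 0.479, 0.547 and 0.513 in WT and 1.81, 3.12 and 2.46 in KO. Replicate 2 lay beside the other libraries of its group in both ratios, and the groups did not overlap.

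Members were also divided by their annotation. Of 24 tested members annotated for at least 100 bases past the stem-loop, 4 were called higher in KO and 4 lower with the block. Of the other 31, 0 were called higher and 9 lower. Over all genes tested, the block called 23.5% higher and 20% lower. The 0 rests on Hist1h4n, annotated for 31 bases past the stem-loop and higher in all 3 pairs at an adjusted p of 0.0101, which was called higher with the block and library-size scaling and with genes of at least 1 count kept. The 4 that were higher are Hist1h1c, Hist1h2bc, Hist1h4i and Hist2h3c2. The 2 classes had similar medians of replicate 2 against the others, −1.48 and −1.57 on the log2 scale in WT and −0.90 and −1.03 in KO. The division was made after the calls were seen, has no test, and its cause was not tested.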
